A study of Mus musculus with 8 samples.

Results

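Narrowed regions are stretches of the genome that carried peaks of histone H3 lysine 27 acetylation (H3K27ac) with and without 4-hydroxytamoxifen (4OHT), but whose peaks were shorter with it. Peaks of the 4 H3K27ac lists that overlapped by at least 1 bp were merged. This gave 82792 union regions; 30131 held a peak in every list and are termed shared. Members were selected by the covered length, the summed length of a list's peaks in the region. It had to be at least 1.5 times greater in untreated than in 4OHT-treated cells in clone a and again in clone b. This held for 2176 regions, 7.22% of the shared ones. The opposite change, at least 1.5 times longer with 4OHT in both clones, was found in 1901 (6.31%), termed widened. The covered lengths chose the members, so their differences are described here and not tested.

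The cells were E14tg2a mouse embryonic stem cells (129SV background) with a stable cRAF-ErT2 transgene, a fusion of RAF and part of the oestrogen receptor through which 4OHT switches on ERK. One group, clones a and b, received 250 nM 4OHT for 2 h, and the other, the same clones, was left untreated; no vehicle control is named. Culture medium of both groups held serum, LIF and the GSK3 inhibitor Chir99021 at 2 uM. For the 24 h before treatment it was replaced by serum and LIF with the FGF receptor inhibitor PD173074 at 250 nM. Effects of 4OHT itself cannot be told apart from those of ERK, and ERK activity was not measured in these data.

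H3K27ac is laid down by the acetyltransferases p300 and CBP on nucleosomes beside active promoters and enhancers, and histone deacetylases remove it. In naive stem cells LIF, acting through STAT3, and the factors Nanog, Esrrb, Klf4 and Prdm14 maintain self-renewal, whereas FGF signalling through ERK moves cells towards differentiation. A peak list shows where the mark exceeded the caller's threshold, and it gives neither read counts nor depth. A weaker signal over the same stretch and a mark confined to a smaller one therefore cannot be told apart, nor can fewer cells with the mark and less of it per cell.

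Few narrowed regions lay over promoters. Of the 2100 whose start sites could be placed, 66 (3.14%) covered a listed start site of a protein-coding gene, against 21.2% of shared regions. The windows below, 250 bases before to 50 bases after a start site, show a pair of promoters that left the peaks with 4OHT and a pair that stayed in them. They are RefSeq sequences of GRCm38.p6 (mm10 coordinates), written 5′ to 3′ on the gene's strand. Capitals mark bases inside a peak of both 4OHT lists. Dhrs3, encoding a retinaldehyde reductase (chr4:144892577-144892876, plus strand), and Nfkbia, encoding an inhibitor of NF-kappa-B (chr12:55492598-55492897, minus strand), had all 300 bases inside a peak of both untreated lists. Cdkn1a, encoding the cell cycle inhibitor p21 (chr17:29090729-29091028, plus strand), and Srebf1, encoding a regulator of sterol and fatty acid genes (chr11:60222532-60222831, minus strand), did so too.
Dhrs3: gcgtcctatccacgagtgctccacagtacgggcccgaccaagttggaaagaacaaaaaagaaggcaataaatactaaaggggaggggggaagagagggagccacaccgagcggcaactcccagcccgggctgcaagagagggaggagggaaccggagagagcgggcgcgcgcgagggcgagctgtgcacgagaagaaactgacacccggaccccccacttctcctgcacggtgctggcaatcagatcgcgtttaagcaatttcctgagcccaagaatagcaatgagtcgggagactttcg
Nfkbia: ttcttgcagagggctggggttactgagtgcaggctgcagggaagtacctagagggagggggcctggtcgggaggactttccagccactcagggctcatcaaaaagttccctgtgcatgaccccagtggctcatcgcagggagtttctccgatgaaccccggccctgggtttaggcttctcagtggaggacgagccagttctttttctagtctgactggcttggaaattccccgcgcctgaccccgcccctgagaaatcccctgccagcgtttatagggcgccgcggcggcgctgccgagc
Cdkn1a: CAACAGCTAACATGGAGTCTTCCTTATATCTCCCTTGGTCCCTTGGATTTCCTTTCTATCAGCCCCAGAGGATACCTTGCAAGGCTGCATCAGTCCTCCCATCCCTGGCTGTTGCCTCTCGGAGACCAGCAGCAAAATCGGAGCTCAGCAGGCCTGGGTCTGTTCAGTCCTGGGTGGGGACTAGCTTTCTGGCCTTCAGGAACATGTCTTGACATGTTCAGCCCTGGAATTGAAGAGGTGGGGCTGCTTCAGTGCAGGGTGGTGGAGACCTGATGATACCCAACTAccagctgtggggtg
Srebf1: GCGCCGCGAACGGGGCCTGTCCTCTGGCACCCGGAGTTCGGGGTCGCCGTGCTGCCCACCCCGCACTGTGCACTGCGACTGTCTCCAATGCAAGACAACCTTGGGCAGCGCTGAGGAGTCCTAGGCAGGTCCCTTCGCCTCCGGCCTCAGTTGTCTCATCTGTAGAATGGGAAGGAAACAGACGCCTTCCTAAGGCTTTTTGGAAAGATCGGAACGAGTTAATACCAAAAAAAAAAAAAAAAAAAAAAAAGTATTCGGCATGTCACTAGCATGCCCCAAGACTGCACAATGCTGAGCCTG

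With 4OHT the first pair left the peaks and the second pair stayed in them. In the Dhrs3 window 0 bases were covered in 4OHT clone a and 0 in clone b, and in the Nfkbia window 0 and 45 bases. In the Cdkn1a window 286 and 300 bases remained covered, and in the Srebf1 window 300 and 300. The whole Dhrs3 region (chr4:144892530-144894747) kept 384 and 960 bp with 4OHT, against 2218 and 2148 bp untreated. The Cdkn1a region (chr17:29090415-29092090) kept 958 and 640 bp, against 1593 and 1399 bp. Peaks thus persisted in all 4 regions, as the rule requires, and the difference lies in whether the start site was inside them. Dhrs3 has further listed start sites downstream, and these were inside the peaks of 4OHT clone b.

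Across the narrowed regions covered length was lower in each 4OHT list than in either untreated list. Its median was 594 bp in 4OHT clone a and 494 bp in 4OHT clone b, against 1438 bp in untreated clone a and 1327 bp in untreated clone b. The quartiles were 360 and 1010 bp, and 307 and 836 bp, in the 4OHT lists, against 955 and 2266 bp, and 858 and 2118 bp, in the untreated ones. Summed over all members, 1.74 and 1.49 Mb were covered with 4OHT, against 3.88 and 3.58 Mb untreated. In the other 27955 shared regions the 4 medians lay together, at 1004 and 973 bp with 4OHT and 912 and 890 bp untreated. The untreated-to-4OHT ratio of covered length, called the narrowing ratio below, had a median of 2.12 in clone a and 2.30 in clone b, and reached 15.7 and 16.8. It was at least 2 in both clones in 879 members (40.4%), at least 3 in 224 and at least 4 in 90. Both 4OHT lengths lay under both untreated lengths in 2075 members (95.4%), against 21.5% of shared regions, which the rule nearly fixes. The median loss was 790 bp in clone a and 761 bp in clone b, and 132 members lost at least 2000 bp in both.

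**Figure D1:**
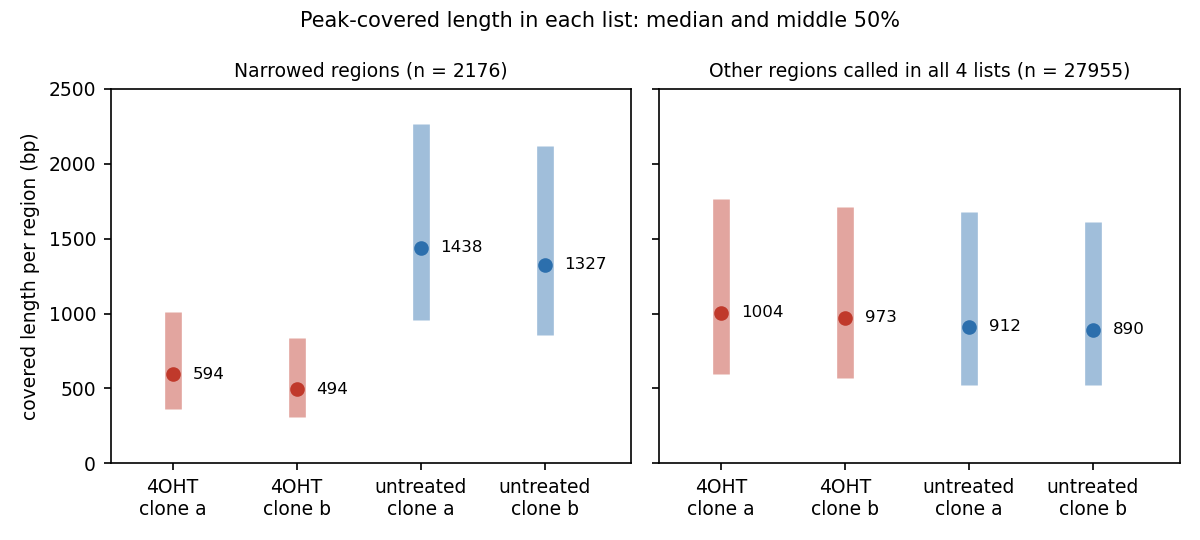
Covered length per region (bp) in each of the 4 lists, for narrowed regions (left) and all other shared regions (right). Points are medians and bars the middle 50% of regions; in narrowed regions the 4OHT medians (594 and 494 bp) lie under the untreated ones (1438 and 1327 bp), and in the others all 4 lie between 890 and 1004 bp.

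How far the clones matched can be read by selecting in one clone and looking at the other. Of 3858 shared regions narrower by 1.5 times or more in clone a (12.8% of shared regions), 2176 were also so in clone b, which is 56.4%, against 14.1% of all shared regions in clone b. Selected in clone b, 4261 regions were narrower and 51.1% of them were narrower in clone a, against 12.8% of all. The change in the clone not used for selection had a median ratio of 1.63 in clone b and 1.52 in clone a, against 0.978 and 0.983 over all shared regions. Regions wider by 1.5 times or more made up 13.8% in clone a and 13% in clone b, and 238 regions (0.79%) were narrower in one clone and wider in the other. The match was greater for long regions. Among those with 3000 bp or more in untreated clone a, 77.3% of regions chosen in clone a were narrower in clone b, against 16.5% of all regions of that length. Between 200 and 500 bp the share was 23.1%, against 7.70%. Chosen in clone b, by length in untreated clone b, it was 27.6% between 200 and 500 bp, against 8.97%. It was 65.5% between 2000 and 3000 bp, against 16.5%, and rose no further at 3000 bp or more (63.7%, against 12.5%). No peak was shorter than 200 bp, so the shortest regions had little room to narrow by 1.5 times. Selection on each clone used 1 library per treatment, so these shares are descriptions of the 4 lists.

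**Figure D2:**
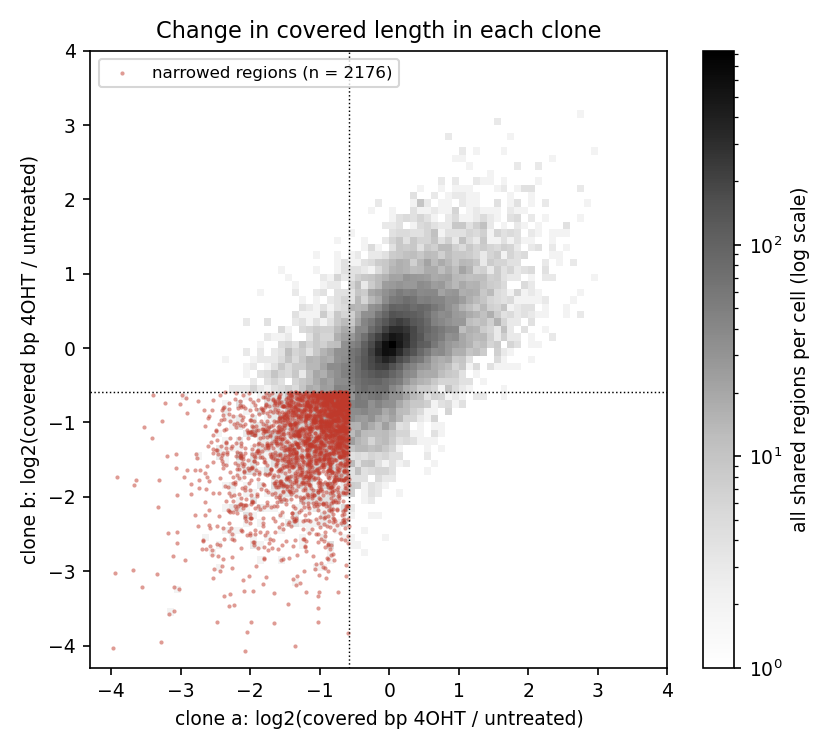
Change in covered length, log2 of 4OHT over untreated, in clone a (horizontal) and clone b (vertical). Grey cells count all 30131 shared regions on a log scale, red points are the 2176 narrowed regions and dotted lines mark the 1.5-times limit; most shared regions gather near 0, and narrowed regions reach -3.97 in clone a and -4.07 in clone b.

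Peaks within narrowed regions were shorter, and their number moved differently in the clones. The widest peak of the region was itself at least 1.5 times shorter with 4OHT in both clones in 1862 members (85.6%), against 8.56% of shared regions; this follows in part from the rule. Members with a single peak made up 68.9 and 71.6% in 4OHT clones a and b, against 78.3 and 64.5% in the untreated clones, so the share was lower with 4OHT in clone a and higher in clone b. Peaks became fewer in both clones in 58 members (2.67%), against 4.18% of shared regions, and more numerous in 147 (6.76%), against 3.23%. In 92 members (4.23%), against 1.90% of shared regions, 1 untreated peak was replaced by 2 or more 4OHT peaks in both clones. In 828 members (38.1%) every list held exactly 1 peak. In these the 4OHT peak lay wholly within the untreated one in 735 regions in clone a and 706 in clone b. Its centre was at 49.9% and 49.8% of the untreated peak's length in the median, with quartiles of 33.0% and 67.4% in clone a and 32.6% and 68.6% in clone b. Sides were taken by genome coordinate, so losses on opposite sides cancel in this median. Where the 4OHT peak lay within the untreated one, a median of 82.1 and 81.5% of the loss was on the side that lost more. By its definition this share cannot fall below an even split, and any remnant off the centre raises it. The side that lost more bases was the same in both clones in 606 of the 828 regions (73.2%). These values were not taken for other shared regions, so whether one-sided loss is particular to members was not tested.

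The stretches that remained were similar but not identical between the clones. Covered bases of the 4OHT lists had a median Jaccard index (shared bases over all bases covered by either list) of 54.2% in narrowed regions, and those of the untreated lists 78.1%. In the other shared regions the medians were 78.9% and 77.4%. Shorter stretches give lower values for the same shift of an edge. Of the bases in the shorter 4OHT stretch, a median of 94.0% were also in the longer. In 80 members (3.68%) the 4OHT peaks of the clones shared no base, against 34 (0.122%) of the other shared regions and, between the untreated lists of the members, 0. The 80 hold peaks in all lists without a common remaining core. Widened regions, whose shorter stretches are the untreated ones, showed the reverse. Their untreated peaks shared no base between clones in 85 regions (4.47%), with a median Jaccard index of 60.5%, against 79.4% for their 4OHT lists.

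The authors' deposited score of each peak, a value with no stated scale that was used only as a rank within its own list, moved with the length. The best-scoring peak of a narrowed region stood at a median percentile of 45.2 and 40.6 in 4OHT clones a and b, against 75.1 and 72.6 in the untreated clones. It was lower with 4OHT in both clones in 1942 members (89.2%), against 33.2% of shared regions. In other shared regions the medians were 74.3 and 74.6 with 4OHT and 71.6 and 72.6 untreated. By untreated rank, 4.33% of the lowest 25% of shared regions narrowed, 9.02% and 9.37% of the middle classes and 6.17% of the highest 25%.

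Narrowed regions lay away from gene ends. Of the 2176, 207 (9.51%; 95% Wilson interval 8.35 to 10.8%) lay at most 1 kb away from the start or end of a protein-coding gene, against 37.9% of shared and 29.5% of widened regions. A further 818 (37.6%) were inside genes away from their ends, against 28.8% of shared regions, and 1151 (52.9%) were outside genes, against 33.3%. More than 100 kb from any protein-coding gene lay 301 (13.8%), against 6.68%. Outside chromosome 18, whose start sites were not used here, the median distance to a listed start site was 40.6 kb. It was 13.2 kb for shared and 21.0 kb for widened regions. Genes elsewhere without a listed start site can lengthen all of these distances. Read the other way, 1.81% of shared regions at gene ends narrowed, against 9.42% of those inside genes and 11.5% of those outside. The interval covers counting error only, and regions are not independent.

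The lower share at gene ends was also seen within classes of length and of rank. Among regions with a mean untreated length of 1000 to 1500 bp, 11.1% of narrowed ones lay at a gene end, against 41.4% of shared ones. From 2000 to 3000 bp the shares were 6.97% and 36.8%. In the highest 25% of shared regions by untreated score percentile they were 7.10% and 48.7%, and in the lowest 25% they were 13.5% and 27.4%. In the class below 500 bp only 44 regions narrowed, 11 of them (25%) at a gene end, against 33.6% of shared ones. The share of regions that narrowed was 0.713% there and 12.4% from 2000 to 3000 bp, and the untreated length that sets these classes also entered the rule.

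**Figure D3:**
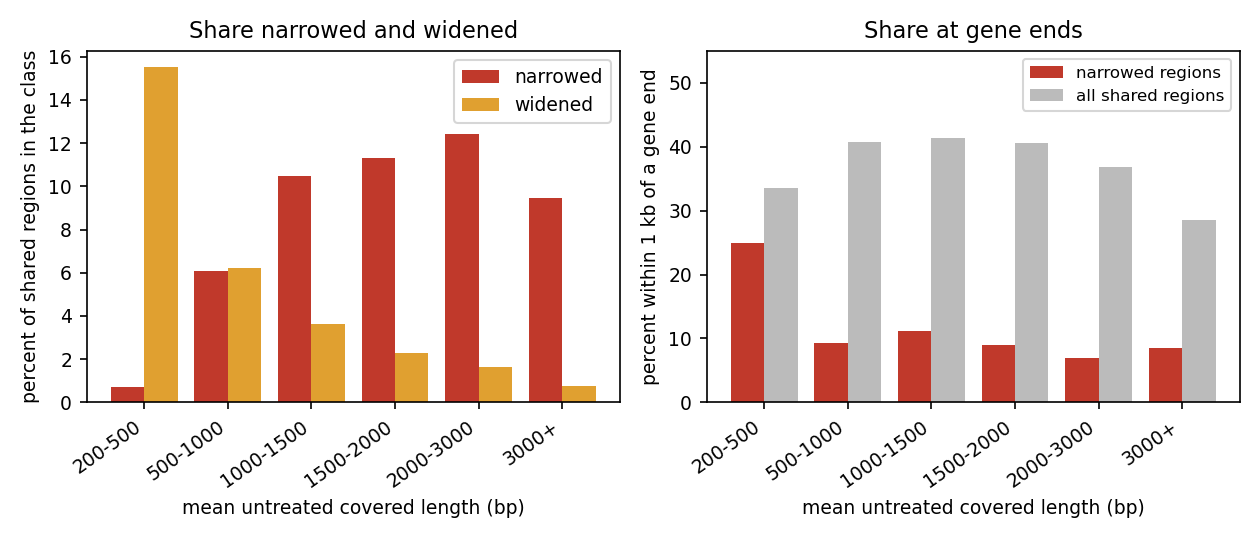
Left, percent of shared regions that narrowed or widened, by mean untreated covered length in bp. Right, percent within 1 kb of a gene end among narrowed regions and among all shared regions of the same length class; the narrowed share is lower in every class, with 25% against 33.6% in the shortest and 8.46% against 28.6% in the longest.

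Most start sites inside narrowed regions stayed inside a peak, and some left it. The 66 narrowed regions over start sites held 76 sites of 67 genes. Of these sites, 54 were inside a peak of both untreated lists. With 4OHT 34 of the 54 (63.0%) were still inside a peak in both clones and 12 (22.2%) were outside in both, against 94.8% and 1.04% of 4795 such sites in shared regions; a difference in this direction follows from the loss of covered length that the rule requires. The others were inside a 4OHT peak in 1 clone. The 12 belonged to Dhrs3, Nfkbia, Eng (a co-receptor for TGF-beta ligands), Islr2, Xaf1, Phf11d, Rabgef1, Ccdc170, Guca2a, Efcab12, Clpsl2 and 4930505A04Rik. Islr2 also had a listed site that stayed inside a peak in both 4OHT lists. Sites kept included those of Cdkn1a, Srebf1, Wdr5, a subunit of histone H3 lysine 4 methyltransferase complexes, and Wls, which carries WNT proteins to the cell surface. On the upstream side the median covered length was 200 and 134 bp with 4OHT, against 466 and 443 bp untreated. On the downstream side it was 485 and 429 bp, against 852 and 837 bp.

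The sequence of these promoters differed from that of all promoters in shared regions. Their median CpG ratio (observed over expected) was 0.607, against 0.820 in shared regions and 0.567 over all listed promoters. Their median GC content was 58.7%, against 62.0% and 56.3%. A GC box (GGGCGG) was found in 36 of 76 windows (47.4%), against 66.2% of windows in shared regions and 46.2% of all listed promoters. The ETS motif CCGGAAG was in 4 windows (5.26%), against 22.5% and 11.6%. The AP-1 motif TGANTCA was in 7 (9.21%), against 4.04% and 6.99%. The STAT motif TTCNNNGAA was in 3 (3.95%, against 6.74% in shared regions), the E-box CACGTG in 8 (10.5%, against 11.1%), and the octamer ATGCAAAT and the TCF/LEF motif CTTTGAT in 1 each (1.32%, against 1.43% and 2.40%). Of the 4 windows printed above, that of Nfkbia held a GC box and the other 3 held none of the 7 motifs. Some of the 76 windows overlap, because start sites can lie a few bases apart, so 1 match can be counted more than once. Both strands were searched, no motif holds another, and a match is not evidence of binding. Most narrowed regions are distal, and their sequences were not examined.

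The surroundings of narrowed regions changed in the same direction. Within 50 kb on either side, outside the region itself, the median covered length was 3.35 and 3.23 kb with 4OHT, against 5.10 and 4.74 kb untreated. Around all shared regions the 4 medians were 4.58 and 4.55 kb with 4OHT and 4.68 and 4.52 kb untreated. The flanks held less covered length with 4OHT in both clones at 1552 members (71.3%), against 36.5% of shared regions, and more in both at 275 (12.6%), against 39.8%. A region lost in both clones (peaks in both untreated lists and neither 4OHT list) lay within 50 kb of 51.7% of members, against 29.9% of shared regions. One gained in both lay near 18.4%, against 31.8%. Of the shared regions within 50 kb of a member, 14.9% were themselves members and 3.17% widened, against 6.29% and 6.03% around all shared regions. These values come from the same lists and the same contrast as the rule, and neighbouring members count in each other's flanks.

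Members separated by at most 50 kb were joined into chains. Most stood alone: 1377 had no other member so close, 283 chains held 2 members, 53 held 3, 12 held 4, 4 held 5 and 1 held 6. Near Gpr37l1 and Elf3 on chromosome 1, 6 of 7 shared regions narrowed over 56.8 kb, and their covered length was 3.61 and 3.13 kb with 4OHT, against 11.6 and 9.61 kb untreated. All 5 shared regions of a 33.3 kb stretch near Lgi1, the gene of a secreted neuronal protein, narrowed (chr19:38318710-38352049). They covered 10.5 and 12.8 kb with 4OHT, against 24.8 and 26.3 kb. The same was seen for all 5 shared regions over 28.5 kb at Hspb8, a small heat shock protein gene (chr5:116383074-116411611; 7.13 and 6.93 kb, against 14.9 and 13.7 kb). The 4 shared regions between Cd28 and Ctla4 covered 5.63 and 5.58 kb with 4OHT, against 11.6 and 10.7 kb. The chains were found by searching for dense stretches of members, so neither their density nor the gap between the groups is a result.

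**Figure D4:**
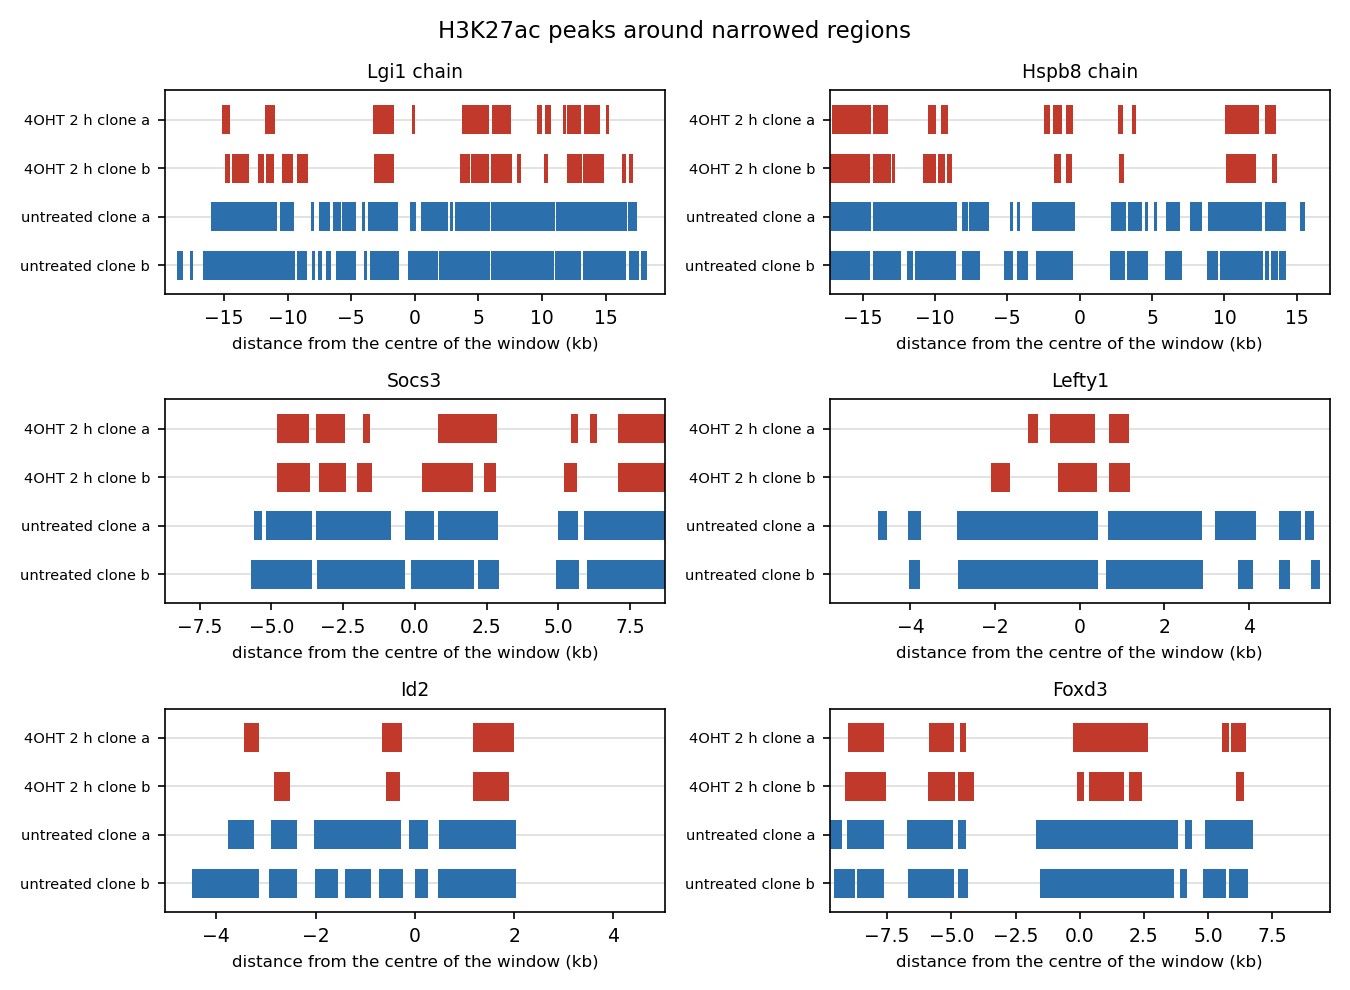
Peaks of the 4 lists as blocks along 6 windows, 4OHT lists in red above untreated lists in blue, by distance from the window's centre in kb. In the Lgi1 and Hspb8 chains long untreated blocks are replaced by shorter separate ones, and at Socs3, Lefty1, Id2 and Foxd3 the 4OHT blocks lie mostly within the untreated ones.

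The strongest narrowing by ratio left only short remnants. At the region with the highest ratio, 340 kb from Gm36722 (chr7:36283057-36286639), 224 and 217 bp remained with 4OHT, against 3511 and 3548 bp untreated, and the remnants of the clones shared no base. Within Arhgef10l, a guanine nucleotide exchange factor gene, 405 and 264 bp remained, against 3964 and 4070 bp. Within Vmn2r3, a pheromone receptor gene, 318 and 571 bp stood against 4878 and 4665 bp. These remnants are near the shortest peak length in the lists, 200 bp, so the ratios are bounded by the caller. The others of the 10 lay within Gm5155 and Elovl5, 5.86 kb from Itgb2, and far from any protein-coding gene, 115 kb from 1700012A03Rik, 126 kb from Npr3, 167 kb from Camk1g and 290 kb from Ttc14. Their ratios were 7.92 to 12.9.

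By bases lost the leading member lay 60.3 kb from Gnat3, the gene of a taste G protein (chr5:18079941-18087096), with 2533 and 2406 bp in the 4OHT lists, against 7156 and 6916 bp in the untreated lists. Near Fxyd6, which encodes a regulator of the sodium pump, 1945 and 934 bp stood against 6234 and 5567 bp. At Traip, a ubiquitin ligase gene, 1534 and 1606 bp stood against 5398 and 5690 bp. Since these regions were picked for their loss, its size in them is a description only. The other regions chosen by bases lost were those at Arhgef10l and Vmn2r3, and ones near 4930505A04Rik, Maip1, Lgi1, Nubpl and Ralgapa2.

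Some members ranked near the top of the untreated lists. Within Fancc, a Fanconi anaemia DNA repair gene (chr13:63353531-63356694), the single peak was 846 and 800 bp long with 4OHT, against 3155 and 3128 bp untreated. Its score percentiles were 84.4 and 82.1, against 99.5 and 99.1. Near Grid1, a glutamate receptor gene, 1998 and 1434 bp with 4OHT stood against 3771 and 3901 bp. Both kept high ranks with 4OHT, at percentiles of 82.1 to 93.3. Other regions of highest untreated rank lay near Lefty1, Lgi1 (2 regions), Anapc10 and Hspa9, and within Abcb1b and Rnf111, a ubiquitin ligase of TGF-beta signalling.

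At the limit of the rule, the members with the smallest ratios were within Nfic (1281 and 771 bp with 4OHT, against 1922 and 1304 bp untreated), near Dcaf4 (690 and 671 bp, against 1140 and 1007 bp) and within Yap1 (1072 and 420 bp, against 1609 and 1198 bp). The shared regions just outside lay within Tpm3 (891 and 468 bp, against 1336 and 1002 bp), near Gm52030 (1158 and 1945 bp, against 2947 and 2916 bp) and within Arfip1 (549 and 312 bp, against 823 and 701 bp). Their smaller ratios rounded to 1.5 as well.

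Among the genes with the most members were Hspb8 (5 of 9 shared regions assigned to it) and, with 4 each, Lgi1, Ctif, Hrh2, Ldlrad3, Rab11fip4, Sox5, Epb41l1 and Lrrc74a. At Ctif, a translation initiation factor gene, the 4 covered 6.38 and 5.89 kb with 4OHT, against 15.8 and 14.5 kb untreated. Those assigned to Hrh2, a histamine receptor gene, covered 3.11 and 2.07 kb, against 7.53 and 6.19 kb. In all, 1173 genes had 1 member, 240 had 2, 52 had 3, 14 had 4 and 2 had 5.

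Members were also set against 17 lists of genes, each region being assigned to its nearest protein-coding gene within 100 kb. Of 28119 assigned shared regions 6.67% narrowed and 6.27% widened, and 1481 of 12195 genes with a shared region had a member. The lists were compiled with earlier results of these data known. Counts of a list are small and are not tested.

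Members of the LIF and Nodal lists stood near the share over all genes (6.67%). Socs3, a STAT3 target that blocks LIF signalling, had 3, and was the only gene with members in the LIF, JAK and STAT3 list (3 of 40 regions, 7.5%). The one overlapping Socs3 (chr11:117963687-117966781) covered 1266 and 1460 bp with 4OHT, against 2603 and 3042 bp untreated. A second, directly next to the first, covered 1103 and 1139 bp, against 1919 and 2147 bp. In both regions clone b had the higher length with 4OHT and untreated. Lefty1, a secreted Nodal inhibitor, had 2 members. The one 10.2 kb away (chr1:180921437-180924784) covered 1302 and 1382 bp, against 3348 and 3304 bp. The one 7.77 kb away covered 468 and 497 bp, against 2232 and 2283 bp. Around each of these members 10 regions were lost in both clones and 0 gained within 50 kb. The Lefty1 members lie directly next to each other, so their windows largely coincide and these are not separate counts. Under the merge rule, a short gap between peaks is enough to make adjacent stretches separate members. Nodal had 1 member, 9.33 kb away (248 and 333 bp, against 741 and 657 bp). The activin receptor gene Acvr1b also had 1, 9.66 kb away (209 and 496 bp, against 653 and 875 bp). The Nodal and TGF-beta list thus held 4 of 47 regions (8.51%).

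Naive pluripotency genes held members at about the background share, 14 of 172 regions (8.14%), with 11 widened (6.40%), although 9 of their 27 genes with a shared region had at least 1. Prdm14, which represses FGF receptor and DNA methylation genes, had 3, of which the longest (chr1:13102428-13105739, 7.69 kb away) covered 1508 and 1057 bp with 4OHT, against 3312 and 2671 bp. Near Tfap2c, a factor of naive cells and germ cells, 904 and 736 bp stood against 2640 and 2046 bp. A region 11 kb from Klf4 covered 623 and 779 bp, against 1664 and 1587 bp. Tbx3, with 2 members, and Sall4 followed by bases lost. In the member 53 kb from Sall4 the groups overlapped, with 1248 and 443 bp, against 1963 and 1168 bp. Further genes of the list, named after their values were seen, were Nanog, Esrrb, Fgf4 and Nr5a2, with 1 assigned member each. The region 16 kb from Nanog covered 945 and 521 bp with 4OHT, against 2556 and 1110 bp. There the untreated clones differed by more than the 4OHT clones. Outside the lists, and also chosen after their values were seen, long regions beside Pramel7 (3329 and 5551 bp, against 9003 and 8978 bp) and Pramel6 (2020 and 2880 bp, against 5187 and 6295 bp) narrowed; Pramel7 is a LIF target that maintains naive pluripotency.

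Of the developmental lists, neural genes had 6 narrowed and 6 widened of 36 regions (16.7% each) and primitive endoderm genes 4 and 2 of 31. A member 54.4 kb from Sox1, a neural progenitor factor (chr8:12453981-12455445), covered 316 and 217 bp with 4OHT, against 1312 and 1244 bp, and a second Sox1 member 797 and 1576 bp, against 3072 and 3100 bp. Hes1 (2 regions), Pax6 and Sox4 held the others. The primitive endoderm members were assigned to Lamc1, Lamb1 and Col4a1. At 24.8 kb from Lamc1, a laminin gene, 1023 and 443 bp stood against 4399 and 3840 bp. At the paired promoters of Col4a1 and Col4a2, type IV collagen genes, 453 and 979 bp stood against 1238 and 1540 bp, although the best score percentile there was higher with 4OHT (63.3 and 69.8, against 29.7 and 55). The others lay 38.3 kb from Lamb1, also a laminin gene, and 29.3 kb from Lamc1, directly next to the first Lamc1 member. Of the 19 genes in that list, 9 had a shared region that could have narrowed.

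Formative and primed genes had 7 narrowed and 11 widened of 67 regions (10.4 and 16.4%). Foxd3, a repressor needed for epiblast cells, had 3 members, the longest of which (chr4:99666973-99672508) covered 2907 and 2115 bp, against 5536 and 5216 bp. A region 31.8 kb from Otx2, a factor of formative cells, covered 272 and 657 bp, against 2261 and 2581 bp. Within Grhl3, an epithelial factor gene, 2956 and 2156 bp stood against 5395 and 4391 bp. Nodal and Etv5 held the others. Trophoblast genes had 2 narrowed and 6 widened of 30 regions (6.67 and 20%), the narrowed ones near Tfap2a and Gata2. Mesoderm and streak genes had 0 narrowed and 2 widened of 12, and genes of differentiated tissues 0 narrowed and 2 widened of 11. The fibroblast list had 3 narrowed and 1 widened of 12 (25 and 8.33%), with 2 narrowed ones assigned to Fn1 (fibronectin) and 1 near Col3a1.

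ERK-responsive genes had fewer narrowed than widened regions, and this was not particular to them. The trophoblast (6.67% narrowed and 20% widened), formative, WNT and DNA methylation lists did too. In the naive, LIF, Nodal, BMP, primitive endoderm and fibroblast lists more regions narrowed than widened. Immediate-early genes had 3 narrowed and 17 widened of 101 regions (2.97 and 16.8%), and the feedback and ETS list 5 narrowed and 18 widened of 93 (5.38 and 19.4%). The narrowed immediate-early regions lay 1.52 kb from Dusp1, a MAP kinase phosphatase gene (200 and 376 bp with 4OHT, against 864 and 778 bp), 9.27 kb from Fosb (219 and 387 bp, against 531 and 657 bp) and 65.2 kb from Jun (568 and 934 bp, against 1024 and 1458 bp). Near Dusp1 the remnants shared no base between clones, and 200 bp is the shortest peak length in the lists. The flanks of the 3 narrowed immediate-early regions went the other way. Within 50 kb of the Dusp1 member 13.0 and 13.5 kb were covered with 4OHT, against 7.06 and 9.28 kb. Near the Fosb member 15.4 and 16.5 kb were covered, against 11.9 and 11.9 kb, and near the Jun member 6.32 and 6.28 kb, against 4.86 and 4.00 kb. Of the feedback and ETS members 4 were distal regions of Elf3, an epithelial ETS factor, and belong to the chain described above. The longest of them covered 920 and 643 bp, against 2151 and 2148 bp. The fifth lay within Etv5 (451 and 543 bp, against 1010 and 828 bp). The Sprouty, Spred and other Dusp genes of that list had no member.

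A pair of members lay beside Id2, a BMP target that inhibits helix-loop-helix factors, and were the only ones of the BMP list (2 of 51 regions, 3.92%). At 1.03 kb from the gene (chr12:25097125-25098925) 400 and 271 bp stood against 1753 and 1482 bp, and at 3.53 kb 829 and 735 bp against 1534 and 1578 bp. The WNT list had 1 narrowed and 5 widened of 46 regions. The narrowed one was within Tcf7l1, a repressor of WNT targets (421 and 238 bp, against 1310 and 921 bp), and its remnants shared no base between clones. DNA methylation genes had 1 narrowed and 4 widened of 31, the narrowed one within Mbd3. Acetylation, BAF and Mediator genes had 1 narrowed of 62 (1.61%), within the acetyltransferase gene Kat6b, and housekeeping genes 1 of 35, near Ppia.

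**Figure D5:**
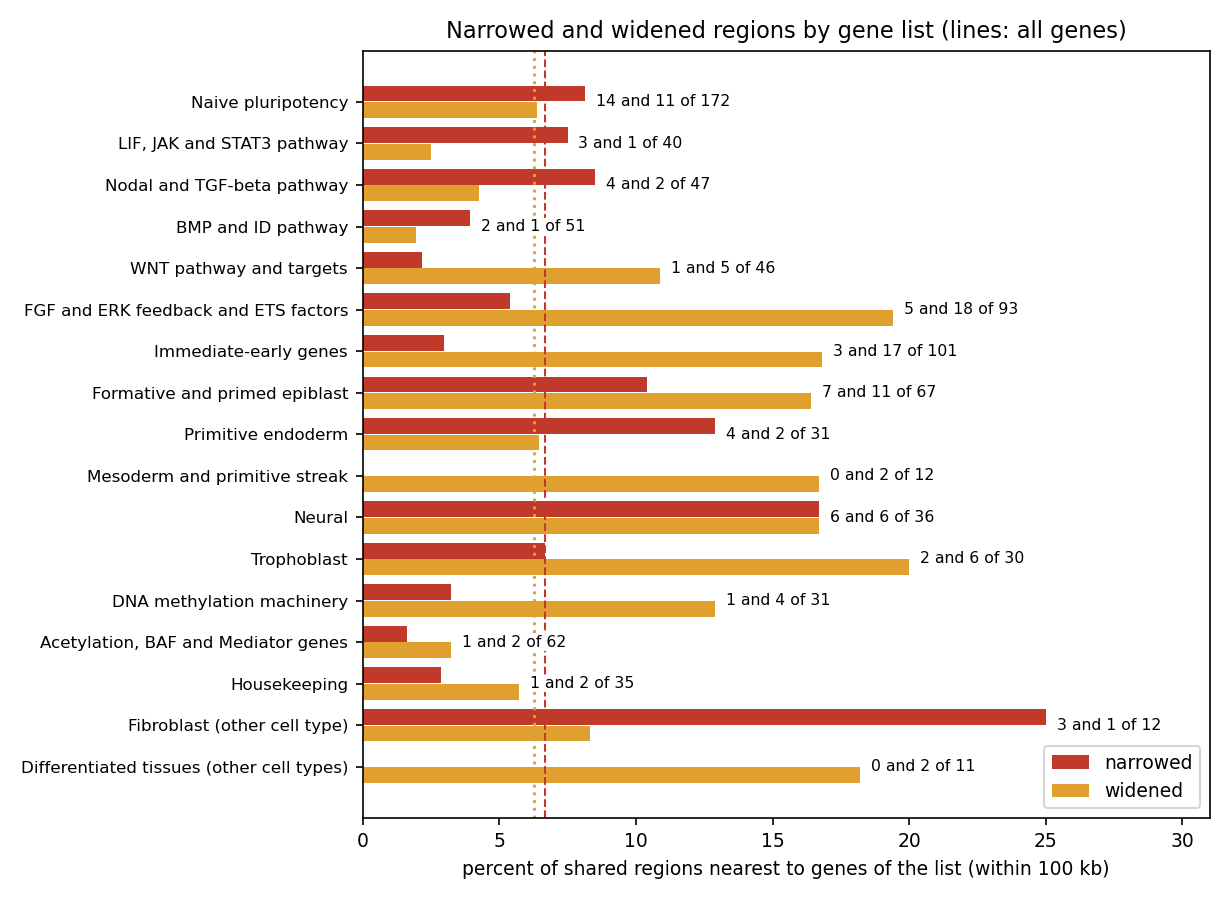
Percent of shared regions assigned to each gene list that narrowed (red) or widened (yellow), with the numbers narrowed and widened of all shared regions beside the bars; dashed and dotted lines give the shares over all genes (6.67% and 6.27%). Immediate-early and feedback lists show 16.8 and 19.4% widened beside 2.97 and 5.38% narrowed, and trophoblast genes 20% beside 6.67%.

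The 4 lists were similar as a whole, with 59170 and 62764 peaks covering 51.5 and 50.7 Mb with 4OHT, and 61203 and 63276 peaks covering 53.1 and 50.4 Mb untreated. The cell type was checked on peaks within 10 kb of marker genes. All 8 stem cell markers (Pou5f1, Sox2, Nanog, Esrrb, Zfp42, Klf4, Tfcp2l1 and Dppa5a) were covered in every list, by 155 and 148 kb in sum with 4OHT and 148 and 142 kb untreated. The 7 fibroblast markers had 6.04 and 8.16 kb, against 7.06 and 6.89 kb, with Prrx1 and Postn at 0 throughout. The 5 primitive endoderm markers had 1.35 and 2.80 kb, against 0.944 and 2.03 kb, with Pdgfra at 0. The 4 blood markers had 4.48 and 5.36 kb, against 4.45 and 3.61 kb; within them Ptprc had 2.40 and 2.59 kb, against 0.224 and 0 kb. Their part in the narrowing was not tested.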

How the data were processed

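H3K27ac chromatin immunoprecipitation was sequenced from 4 libraries, clones a and b with and without 4OHT; the 4 inputs were not used here. The tools named per the submitters' processing notes are Bowtie2, bedtools and MACS2, with the mm10 build; their versions and thresholds, and whether inputs entered the calling, are not stated. Each deposited list holds the peaks of 1 library with their start and end and a score, a whole number whose scale the authors do not state. The lists hold no read counts, so depth is unknown.

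Peaks were merged and measured with Python 3.11.15, pandas 2.3.3 and numpy 2.4.6, and the rule was checked on synthetic lists. Clones were compared within themselves, as the rule states. No statistical test was run, because the covered lengths chose the members. Positions used 21887 protein-coding genes and 21263 listed start sites of 17492 genes from RefSeq tables of GRCm38.p6. Of the protein-coding genes, 511 lie on chromosome 18, which was left out wherever start sites were used. Promoter windows came from the RefSeq promoter table of the same build; sequence outside them was not used here.

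The members and gene lists were chosen with earlier results of these data known. Named genes are those nearest to the 10 members with the largest ratio (by the smaller clone), the most bases lost and the highest untreated score percentile, up to 5 genes per list by bases lost, and 3 regions on either side of the limit. The 10 genes with most members are also named. Some genes that this rule names are not reported here. Promoters, chains and the other genes in the text were picked with their values known. The alternatives changed the ratio, merging, measure of length, scaling, score filters, pairing and the set of libraries.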

Additional observations from a re-analysis of the deposited data

How the results depend on the processing

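The number of narrowed regions was 3933 when untreated lengths had to be only 25% greater and 879 at a ratio of 2, 764 in the upper 50% of each list by score, 368 in the top 20000 peaks, 1330 with at least 1000 bp in both untreated lists and 828 with 1 peak in each list (chosen after seeing the data). Without pairing by clone (no replicate block) it was 1474 when every untreated list had to exceed every 4OHT list, and 3536 when group means were compared. With a library left out it was 2014 to 4008, the highest without 4OHT clone a and 3388 without 4OHT clone b. These settings also changed the rule. A region needed a peak only in the remaining lists, and every untreated list was compared with every 4OHT list, without pairing. Merging, the widest peak, the span and both scalings kept the number of narrowed regions within 1.5 times of 2176 (1712 to 2579).

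The share at gene ends was 11.6% at the looser limit and 6.48% at a ratio of 2, 12.3% with peaks merged within 1000 bp, 12.8% in the upper 50%, 14.7% in the top 20000, and 9.74 to 10.9% with a library left out. It was 7.58% within 500 bp, 14.2% within 2500 bp and, in settings added after seeing the data, 6.14% within 1 kb of a start site, 13.0% by clone a only and 13.3% by clone b only. In the settings that recompute it, the share of all shared regions was 32.6 to 53.5%. Carry-over at the looser limit was 60.9% chosen in clone a and 58.6% chosen in clone b, against 22.3 and 21.4% of all shared regions. At a ratio of 2 it was 48.0 and 41.7%, against 6.99 and 6.08%. After scaling to the median it was 52.6% chosen in clone b. Why these values moved was not tested.

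Depth is unknown, so the lists do not show whether bases outside a shorter peak lack the mark. With 2 clones per treatment, the spread between clones rests on 1 pair.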
